A study of Homo sapiens with 22 samples.

Results

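Tumour cells that persisted under alectinib in hHGF-NSG hosts were compared after 6 weeks and after 2 weeks of treatment. The comparison takes its samples from their labels: 3 xenograft tumours at 6 weeks and 4 at 2 weeks, which are 7 of the 22 samples in the series. All 22 tumours are xenografts of H3122, an established human lung adenocarcinoma line labelled ALK+ NSCLC (ALK-positive non-small cell lung cancer), which is driven by a fusion of the kinase ALK. Alectinib is an inhibitor of ALK. The hosts are NSG mice, which lack T, B and NK cells, and hHGF-NSG mice, an NSG strain labelled as humanized for HGF. The 6 groups are hHGF-NSG after 6 weeks of alectinib (3 samples), after 2 weeks (4) and therapy-naive (3), and NSG after 6 weeks (4), after 2 weeks (4) and therapy-naive (4). The promoter behind human HGF, the dose, the hour of collection and the number of animals are not given in the labels, and nothing says that samples came from separate animals. The p-values below therefore measure only the spread between these samples. Reads that the authors counted on human genes were taken as tumour RNA and those on mouse genes as host RNA.

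HGF is the ligand of the receptor kinase MET, and signalling through MET can keep cells alive when another driver kinase is inhibited. Multiciliated airway cells leave the cell cycle, make many centrioles at once with parts of the mitotic machinery and grow motile cilia, under regulators such as multicilin, FOXJ1 and RFX factors. The circadian clock is a transcriptional loop in which ARNTL (BMAL1) and CLOCK activate the PER, CRY and NR1D genes, whose products repress the loop.

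Libraries at 6 weeks held 10688632 to 14376750 human reads, those at 2 weeks 14854822 to 17182482. The mouse share of all reads was 24.3% to 28.95% at 6 weeks and 8.71% to 17.4% at 2 weeks, without overlap (difference 14.4 percentage points, exact two-sided permutation p = 0.0571, the smallest that 3 against 4 samples allow). Mitochondrial genes took 6.84% to 11.2% of human reads at 6 weeks and 6.52% to 8.55% at 2 weeks. All 7 markers of tumour epithelium were measured, and none was called. Their summed levels were 1012 to 1259 FPKM at 6 weeks and 925 to 1183 FPKM at 2 weeks. FPKM are fragments per kilobase of gene, scaled by 1 size per library. Human-table sums of fibroblast markers were 12.9 to 17.2 FPKM at 6 weeks and 6.73 to 8.54 FPKM at 2 weeks, without overlap (13 markers, 3 tested, none called). Most of this sum was COL1A1, with means of 13.2 FPKM at 6 weeks and 6.63 FPKM at 2 weeks. It had 1843, 2188 and 1278 human reads at 6 weeks against 1201, 1120, 1260 and 987 at 2 weeks. Its mouse reads were 60865, 66074 and 43453 at 6 weeks and 106701, 31964, 34472 and 34923 at 2 weeks. DCN and POSTN had 0 human reads in all 7 libraries, where a count of 0 allows up to 3 reads. The other fibroblast markers did not all lie the same way: COL3A1 had 26, 94 and 16 at 6 weeks against 3, 5, 5 and 0 at 2 weeks, and COL5A1 had 66, 96 and 25 at 6 weeks against 11, 17, 9 and 16 at 2 weeks, while COL6A3 had 2, 10 and 7 at 6 weeks against 28, 70, 25 and 36 at 2 weeks. Endothelial markers summed to 8.14 to 11.5 FPKM at 6 weeks and 6.12 to 7.47 FPKM at 2 weeks, without overlap (9 markers, 3 tested, none called). Most of this sum was KDR, with means of 6.84 FPKM at 6 weeks and 3.64 FPKM at 2 weeks. The other tested markers did not lie the same way: CDH5 averaged 1.81 FPKM at 6 weeks and 1.65 FPKM at 2 weeks, and VWF 0.946 and 1.36 FPKM. Leukocyte markers summed to 0.325 to 0.865 FPKM at 6 weeks and 0.279 to 1.02 FPKM at 2 weeks (12 markers, 6 of them at 0 reads). Adipocyte markers summed to 0.121 to 0.581 FPKM at 6 weeks and 0.0817 to 0.104 FPKM at 2 weeks, without overlap (6 markers, 1 tested, none called), and ADIPOQ, FABP4 and LEP had 0 human reads in all 7 libraries. These sums rest on few reads: LPL had 2, 21 and 8 at 6 weeks against 1, 1, 1 and 0 at 2 weeks. CIDEC had 5 reads in 6-week replicate 2 alone, and PLIN1 had 5, 5 and 6 at 6 weeks against 6, 5, 5 and 6 at 2 weeks. The part of the larger mouse share in the human values was not tested. The library labelled NSG naive replicate 1 held human HGF at 0.32 FPKM although its label names no human HGF, and it enters only the shared estimate of spread.

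Of the 58735 human genes, 16029 reached 1 FPKM in at least 3 of the 22 samples and were tested on log2(FPKM + 1), where a log2 change understates the change of low genes. A gene is called when limma's Benjamini-Hochberg adjusted p is under 0.05. Called were 1455 genes (9.08% of those tested), 421 higher at 6 weeks (2.63%) and 1034 lower (6.45%). At least 2-fold were 53 of the higher and 208 of the lower genes. The median log2 change over all tested genes was -0.003. The shares of 2.63% higher and 6.45% lower are the background of every list count below. Called or not, 1540 tested genes (9.61%) were higher and 2097 (13.1%) lower without overlap between the samples of both times. Among called genes 403 higher and 1002 lower genes had no overlap, so that being apart adds little to a call. Leaving out 6-week replicate 1 or 2 left 260 and 250 higher calls, so the number of higher genes rested on these libraries. In a fit of the 7 samples alone, 589 genes were higher and 1058 lower. The second principal component of all 22 samples, with 8% of the variance, separated 6 from 2 weeks.

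**Figure D1:**
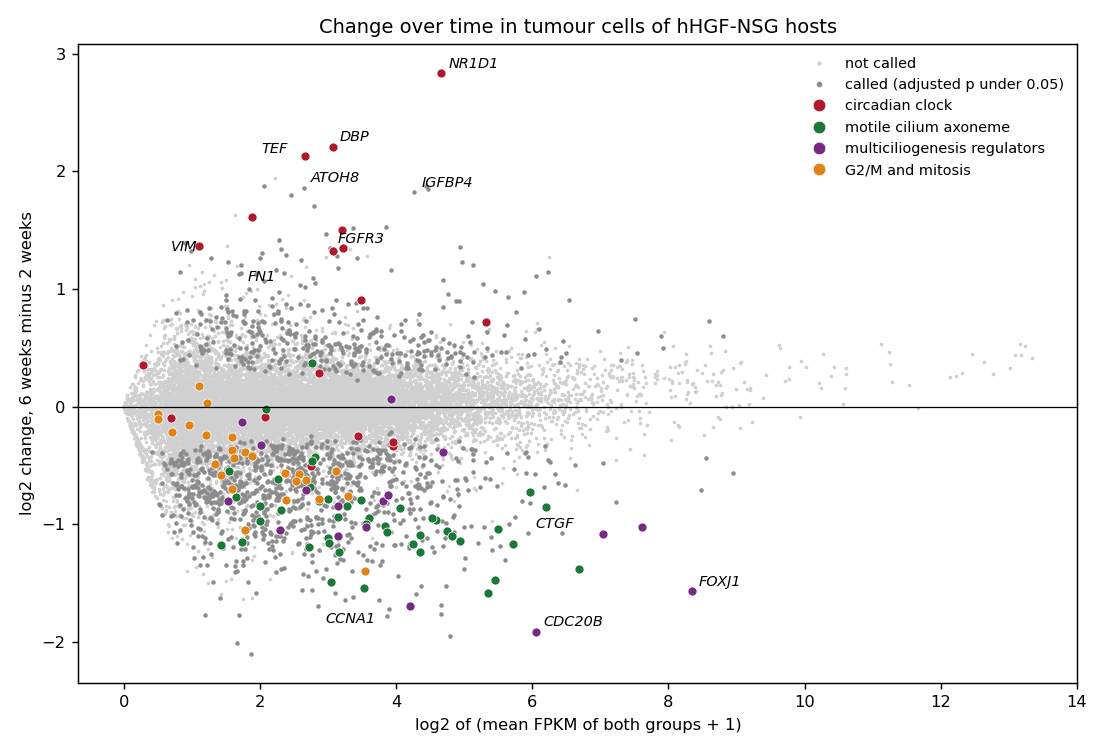
Each point is 1 of the 16029 tested human genes: the horizontal axis is log2 of the mean FPKM of both groups plus 1, the vertical axis the log2 change, 6 weeks minus 2 weeks, in hHGF-NSG. Coloured points are members of the gene lists in the legend. All but 1 axoneme gene and 1 regulator lie below 0, over a wide range of levels, and NR1D1, DBP and TEF have the largest rises of all tested genes.

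The multiciliated programme was lower in 6-week than in 2-week tumours, and it included the largest fall of a protein-coding gene, that of CDC20B. Of 17 tested multiciliogenesis regulators 14 fell and none rose, with a median log2 change of -0.84. Of 44 tested genes of the motile cilium axoneme 40 fell and none rose, with a median of -0.98. Of all tested genes 6.45% fell and 2.63% rose. Both lists were put together with earlier results of these samples known, so their direction is no independent evidence. GMNC, DNAH9, SPAG6, CFAP126 and C20orf85 did not pass the filter, and 1 further axoneme gene was not found by its symbol. In bulk tissue, fewer cells with cilia and less RNA per such cell cannot be told apart.

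At 6 weeks the axoneme genes still stood above their level before treatment, while the regulators were mixed. The median level of the axoneme genes was 0.456 FPKM in naive tumours, 12.4 FPKM at 2 weeks and 6.31 FPKM at 6 weeks. That of the regulators was 3.10 FPKM in naive tumours, 14.8 FPKM at 2 weeks and 7.77 FPKM at 6 weeks. The 6-week mean was above the naive mean in 44 of 44 axoneme genes and in 11 of 17 regulators. Of the 6 regulators below it, PLK4 averaged 7.22 FPKM in naive tumours, 11.1 FPKM at 2 weeks and 4.62 FPKM at 6 weeks, and STIL 4.02 FPKM in naive tumours, 5.62 FPKM at 2 weeks and 2.19 FPKM at 6 weeks. The comparison with naive tumours is a description, with no test here.

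FOXJ1 (ENSG00000129654, hg38 chr17:76136333-76141299, minus strand), the transcription factor that switches on motile cilium genes, had 174, 175 and 140 FPKM at 6 weeks against 476, 552, 444 and 466 FPKM at 2 weeks. Every 6-week tumour lay far below every 2-week tumour (log2 change -1.57, SE 0.18, adjusted p = 5.29e-06). FOXN4, a forkhead factor upstream in multiciliated cells of frog and mouse, had 6.57, 6.48 and 10.3 FPKM at 6 weeks against 23.4, 30.9, 30 and 24 FPKM at 2 weeks (log2 change -1.69, SE 0.13, adjusted p = 8.72e-08). Its groups did not overlap either. RFX2 and RFX3, which bind the X-box of cilium genes, fell by 1.02 and 0.71 (SE 0.09 and 0.11), MYB by 0.75 and TP73, an activator of Foxj1 in mouse, by 0.84.

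The nearby genes CDC20B, MCIDAS and CCNO on chromosome 5 all had negative changes, and whether these differ in size was not tested. CDC20B (chr5:55112995-55173175, minus strand), a CDC20 paralogue of cells that amplify centrioles, had 20.9, 25 and 36 FPKM at 6 weeks against 99.5, 117, 98.3 and 97.6 FPKM at 2 weeks. This was the largest fall among the named genes (-1.91, SE 0.14, adjusted p = 8.72e-08). CCNO (chr5:55231152-55233680, minus strand), a cyclin-like protein needed for centriole amplification, had 129, 130 and 125 FPKM at 6 weeks against 247, 315, 227 and 263 FPKM at 2 weeks (-1.02, SE 0.17, adjusted p = 0.000355). MCIDAS (chr5:55219614-55227315, minus strand), the gene of multicilin, had 23.1, 20.2 and 20.6 FPKM at 6 weeks against 27.1, 35, 25.6 and 25.6 FPKM at 2 weeks. Its groups did not overlap, yet its change of -0.38 was not called (SE 0.13, adjusted p = 0.0773).

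Other members of the centriole machinery fell as well. PLK4, the kinase that starts a new centriole, had 4.14, 4.9 and 4.81 FPKM at 6 weeks against 10.4, 13, 10.4 and 10.6 FPKM at 2 weeks (-1.10, SE 0.08, adjusted p = 8.72e-08). DEUP1, which builds the deuterosome on which centrioles form, fell by 0.80, and STIL, a centriole assembly protein, by 1.05. CCNA1, an A-type cyclin outside both lists, had 4.89, 5.95 and 5.76 FPKM at 6 weeks against 24.7, 23.5, 16.5 and 21.7 FPKM at 2 weeks (-1.78, SE 0.15, adjusted p = 1.84e-07). In each of these genes the groups were apart, which for CCNA1 was a condition of being named.

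In the axoneme, LRRC46 fell by 1.58, the tektin TEKT4 by 1.54, the radial spoke head protein RSPH9 by 1.49, and ZMYND10, which helps assemble dynein arms, by 1.47 (SE 0.14, 0.14, 0.20 and 0.13). ZMYND10 had 22.2, 22.3 and 21.5 FPKM at 6 weeks against 64, 70.7, 50.5 and 68.4 FPKM at 2 weeks. TEKT4 had 4.16, 6.19 and 4.55 FPKM at 6 weeks against 16.5, 17.1, 15.8 and 15.1 FPKM at 2 weeks. Both genes kept the groups apart, with adjusted p of 3.51e-07 and 3.94e-07. ROPN1L, a radial spoke protein, fell by 1.38 (SE 0.26, adjusted p = 0.0011), the outer dynein arm genes DNAI1 and DNAH5 by 1.09 and 0.84, and GAS8, of the nexin-dynein complex, by 0.46. Among the 4 tested members without a call, C9orf24 had 6.59, 6.4 and 7.02 FPKM at 6 weeks against 6.25, 4.38, 4.04 and 5.24 FPKM at 2 weeks (0.37, adjusted p = 0.315), the only positive change in the list, and CFAP44 had a change of -0.02. Outside the lists, WDR38 fell by 1.68, C11orf16 by 1.64, CROCC2, a paralogue of the ciliary rootlet gene, by 1.62, LDLRAD1 by 1.76 and CCDC188 by 1.70.

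**Figure D2:**
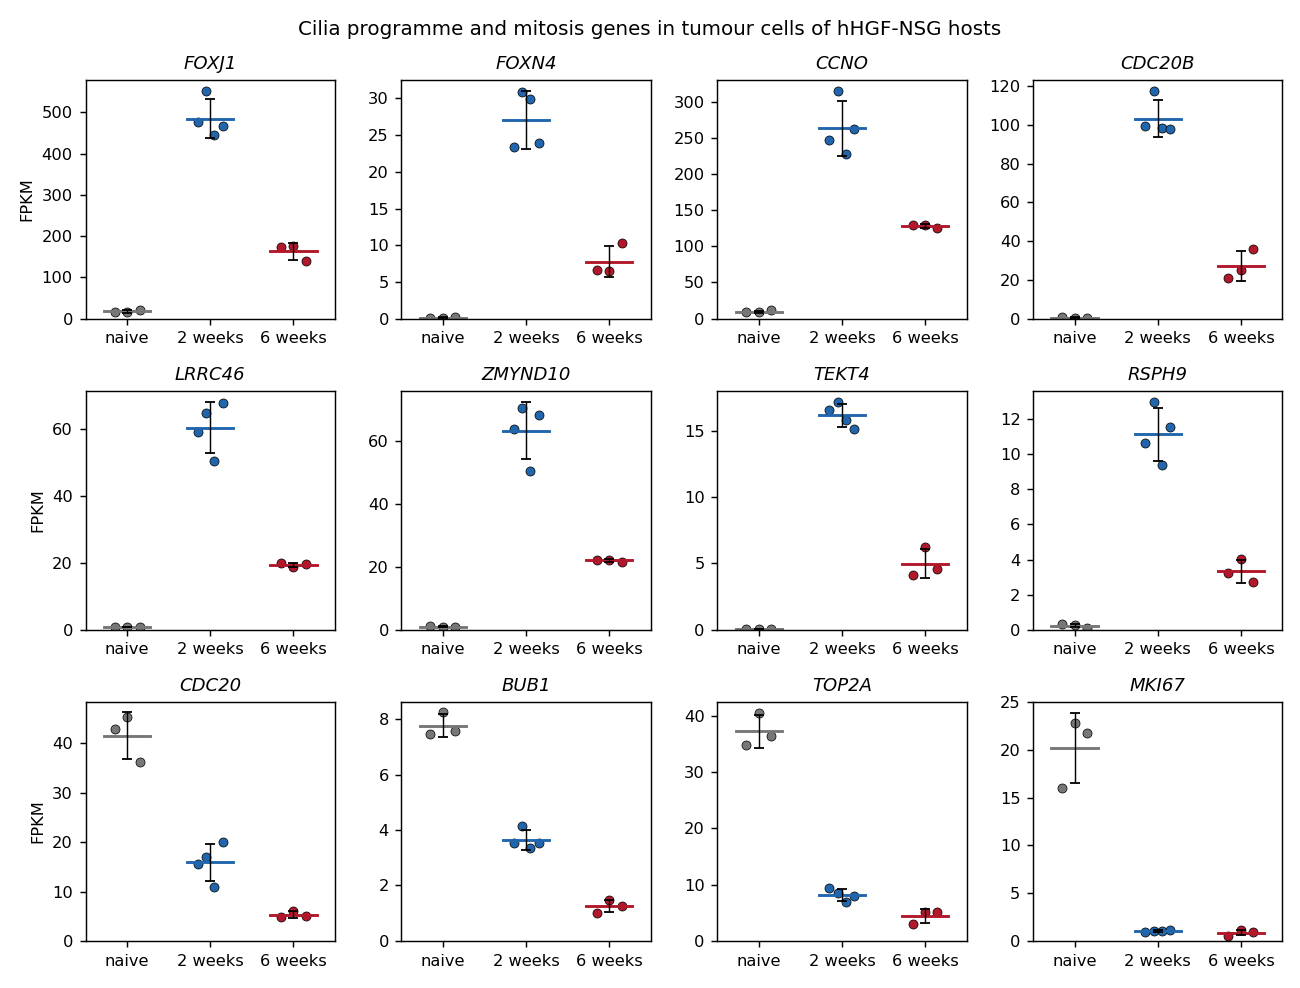
Each panel gives the FPKM of 1 gene in every hHGF-NSG tumour (points, with the mean as a line) therapy-naive, at 2 weeks and at 6 weeks of alectinib. FOXJ1 stood at 140 to 175 FPKM at 6 weeks and 444 to 552 FPKM at 2 weeks, both above the naive mean of 17.8 FPKM, whereas MKI67 stood near 1 FPKM at both treated times.

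Promoter windows are shown for 4 falling genes that hold GTTGCCA, the core of the X-box bound by RFX factors, within the 250 bases before the RefSeq start (RefSeq, GRCh38.p14). Capitals mark the match to GTTGCCA on either strand (TGGCAAC on the other strand), and each sequence reads 5′ to 3′ on the gene's strand.
TEKT4 (chr2:94871387-94871429, plus strand): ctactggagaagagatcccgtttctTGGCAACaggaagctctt
RSPH9 (chr6:43644867-43644923, plus strand): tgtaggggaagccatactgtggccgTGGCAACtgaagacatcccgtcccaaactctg
CROCC2 (chr2:240906277-240906333, plus strand): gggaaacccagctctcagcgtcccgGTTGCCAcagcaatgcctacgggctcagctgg
C11orf16 (chr11:8932962-8933018, minus strand): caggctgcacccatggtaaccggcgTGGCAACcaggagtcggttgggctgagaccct
The motif was in 9 of the 29 axoneme promoters in the table (31.0%), in 3 of 14 regulator promoters (21.4%) and in 76 of 758 promoters of genes called lower (10%). It was in 3 of 292 promoters of genes called higher (1.03%), 335 of 10485 of tested genes (3.2%) and 1218 of 34943 of all genes (3.49%). Of the 76 lower genes with the motif, 11 belong to the cilia lists. The forkhead motif TGTTTAC was in 6.9% of axoneme and 2.01% of tested promoters. A match is a description of these letters and not evidence that a factor binds there.

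Genes of mitosis were lower at 6 than at 2 weeks, whereas no gene of the G1/S and DNA replication list was called. Of 25 tested G2/M and mitosis genes 15 fell and none rose, against 6.45% and 2.63% of all tested genes. The median log2 change of this list was -0.49. In the 28 G1/S and replication genes the median was -0.12, limma called none, and 4 had an unadjusted p under 0.05, all lower. A negative change was seen in 23 of these 28 genes and in 23 of the 25 G2/M genes. In NSG, limma called 12 of the 28 and 19 of the 25 lower, against 11.9% of all tested genes. The G2/M count was 10 to 16 over the alternatives tried, and 1 G1/S gene was called lower without 2-week replicate 3 or 6-week replicate 3. Whether the lists differ was not tested.

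CDC20, the activator of the anaphase-promoting complex and a paralogue of CDC20B, had 4.79, 6.12 and 5.09 FPKM at 6 weeks against 15.5, 17.1, 10.9 and 20.1 FPKM at 2 weeks. Its groups were apart (-1.39, SE 0.16, adjusted p = 7.16e-06). BUB1, a kinase of the spindle checkpoint, had 1.02, 1.46 and 1.27 FPKM at 6 weeks against 3.52, 4.16, 3.33 and 3.53 FPKM at 2 weeks (-1.05, SE 0.10, adjusted p = 1.14e-06). CCNB2 and TOP2A fell by 0.79 each, CDK1 by 0.76, the transcription factor FOXM1 by 0.70 and the kinase AURKA by 0.62. CDK1 is known to be active in centriole-amplifying cells of mouse as well as in mitosis.

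The proliferation marker MKI67 was not called, and whether its change differs from those of the called genes was not tested. It had 0.549, 1.11 and 0.895 FPKM at 6 weeks against 0.963, 0.992, 1.09 and 1.13 FPKM at 2 weeks, with overlapping groups (-0.15, SE 0.14, adjusted p = 0.627). Its naive mean was 20.2 FPKM. AURKB, CCNA2, BUB1B, CENPA, CENPE, KIF20A, NUSAP1, MYBL2 and NDC80 were not called either. The S-phase genes PCNA and TK1 had changes of -0.12 and -0.09 (adjusted p = 0.742 and 0.821), and TK1 changed sign without 2-week replicate 4 (0.02) and without 6-week replicate 1 (0.05). The CDK4/6 inhibitor gene CDKN2D fell by 0.67 (adjusted p = 0.0105), a call that ended without 6-week replicate 3 (-0.49).

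The clock genes NR1D1, DBP and TEF had the largest rises of all tested genes at 6 weeks. Of 18 tested clock genes 10 rose and 1 fell, with a median log2 change of 0.81, against 2.63% and 6.45% of all tested genes. NR1D1 (REV-ERB alpha), a nuclear receptor that represses ARNTL, had 56.6, 47.6 and 26.6 FPKM at 6 weeks against 5.2, 5.82, 4.17 and 4.79 FPKM at 2 weeks. The lowest 6-week tumour was far above the highest 2-week tumour (2.84, SE 0.20, adjusted p = 4.29e-08). DBP, a PAR bZIP activator under direct clock control, had 15.6, 14.2 and 8.73 FPKM at 6 weeks against 1.63, 2.51, 1.51 and 2.14 FPKM at 2 weeks (2.21, SE 0.21, adjusted p = 6.66e-07). The related TEF had 11.1, 9.92 and 6.99 FPKM at 6 weeks against 1.53, 1.72, 1.26 and 0.895 FPKM at 2 weeks (2.13, SE 0.18, adjusted p = 1.89e-07). In all 3 genes 6-week replicate 3 was the lowest of its group.

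The repressors followed the same direction in part. PER3 had 4.78, 4.02 and 4.94 FPKM at 6 weeks against 1.02, 0.712, 1 and 0.583 FPKM at 2 weeks (1.61, SE 0.12, adjusted p = 8.72e-08). PER1 rose by 1.33, CIART by 1.37, BHLHE40 by 1.35, NR1D2 by 1.51 and CRY2 by 0.90. PER2 had 12.7, 10.7 and 14.2 FPKM at 6 weeks against 17.4, 12.4, 25.3 and 10.7 FPKM at 2 weeks, with overlap (-0.30, adjusted p = 0.595), and CRY1 had a change of -0.33 (adjusted p = 0.0779). ARNTL, the activator of the loop, was the only clock gene that fell: 4.51, 4.86 and 4.38 FPKM at 6 weeks against 6.73, 7.06, 7.15 and 6.74 FPKM at 2 weeks (-0.51, SE 0.08, adjusted p = 0.000238). CLOCK, NPAS2, NFIL3, RORA and BHLHE41 were not called, and HLF was not tested.

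Host cells of the same tumours moved in parallel. Of 19 mouse clock genes, 12 were higher and 2 lower at 6 weeks without overlap between groups, against 6.86% and 6.57% of 14287 mouse genes. Mouse Nr1d1 had 80.8, 79.0 and 64.1 FPKM at 6 weeks against 35.1, 28.97, 26.97 and 37.3 FPKM at 2 weeks. Mouse Dbp had 79.0, 95.6 and 64.2 FPKM at 6 weeks against 27.3, 26.4, 17.0 and 16.7 FPKM at 2 weeks, and Arntl had 1.71, 0.585 and 0.638 FPKM at 6 weeks against 3.74, 4.59, 4.64 and 8.14 FPKM at 2 weeks. Both activator and outputs were thus apart in host and tumour. Of the 10 human clock genes called higher, 9 were higher without overlap in mouse, and Per1 overlapped. The labels give no hour of collection, so that time of day and weeks of treatment cannot be told apart.

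**Figure D3:**
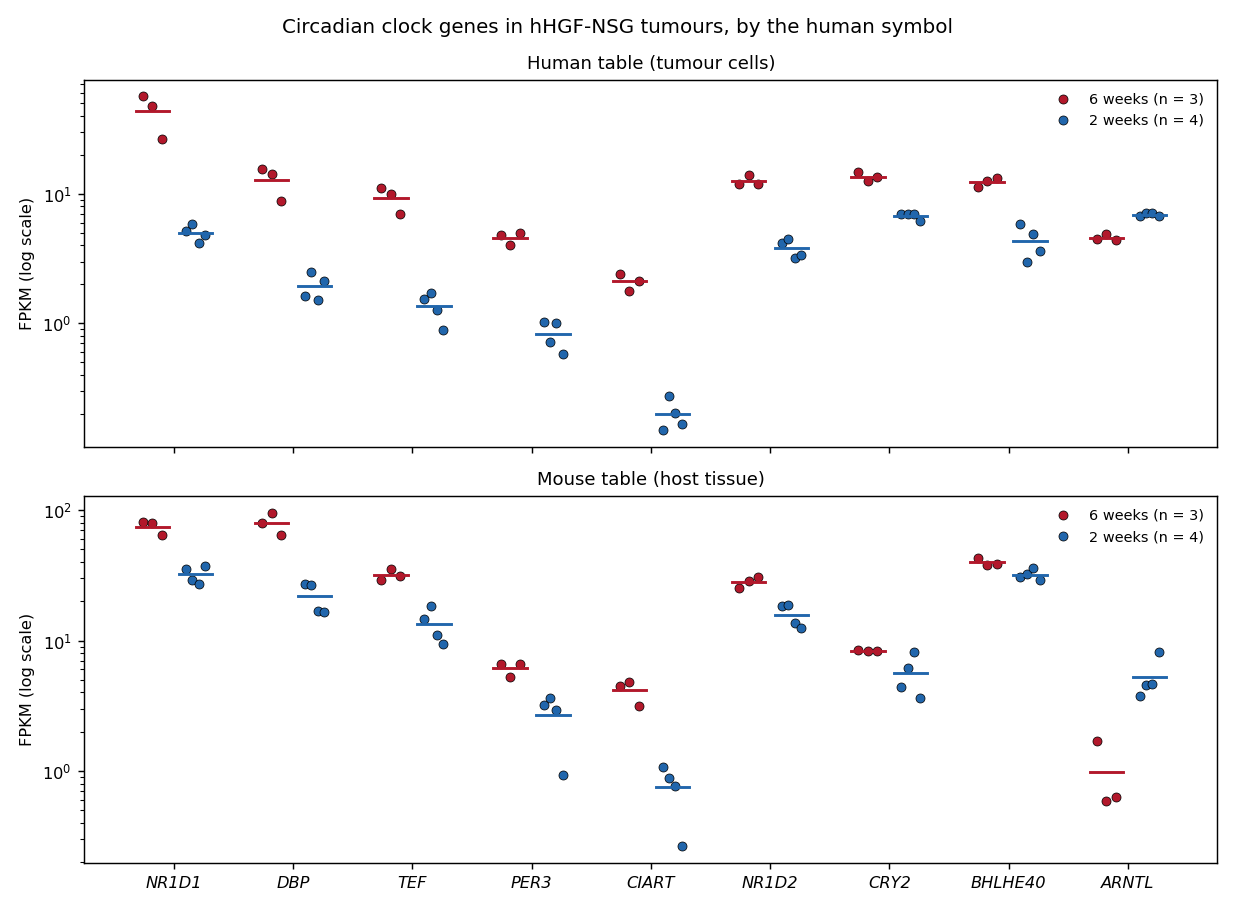
FPKM on a log scale of clock genes in the human table and of the same genes in the mouse table, in every hHGF-NSG tumour at 6 weeks and at 2 weeks, with the group means as lines. NR1D1, DBP and TEF are higher and ARNTL lower at 6 weeks in either species, without overlap.

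Promoter windows are shown for TEF and BHLHE40, rising clock genes that hold CACGTG, the E-box bound by CLOCK and ARNTL and by other bHLH factors (RefSeq, GRCh38.p14). Capitals mark the motif, which reads the same on both strands.
TEF (chr22:41367235-41367290, plus strand): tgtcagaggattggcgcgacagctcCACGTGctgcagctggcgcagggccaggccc
BHLHE40 (chr3:4979187-4979222, plus strand): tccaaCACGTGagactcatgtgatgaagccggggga
The motif was in 5 of 17 clock promoters (29.4%), 8.93% of tested and 6.32% of all promoters, but also in 31.6% of the lysosome and autophagy list and 26.3% of the G2/M list.

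Apart from the clock, the named rises were those of ATOH8, IGFBP4, KRT78, ICAM5, INHBB, IGFL1 and AVPI1. ATOH8, a bHLH factor induced by BMP signals, had 9.99, 10.6 and 5.86 FPKM at 6 weeks against 1.6, 1.13, 2.21 and 1.68 FPKM at 2 weeks (1.86, SE 0.16, adjusted p = 3.32e-07). KRT78, an epithelial keratin, had 8.67, 6.79 and 7.26 FPKM at 6 weeks against 1.63, 1.41, 1.28 and 1.5 FPKM at 2 weeks (1.80, SE 0.21, adjusted p = 7.27e-06). Both were apart in all samples, which for KRT78 was a condition of being named. Krt78 had 0 mouse reads in all 7 libraries. ICAM5, an adhesion molecule, rose by 1.70, INHBB, a subunit of activin B, by 1.52, IGFL1 by 1.52 and AVPI1 by 1.36. IGFL1P1, a pseudogene that can share reads with IGFL1 and is named here after its value was seen, rose by 1.85. IGFBP4, which binds insulin-like growth factors, had 31.8, 30.4 and 24.5 FPKM at 6 weeks against 8.04, 6.23, 6.97 and 8.59 FPKM at 2 weeks (1.82, SE 0.26, adjusted p = 7.98e-05). It had 1024, 1004 and 593 human reads at 6 weeks against 307, 259, 253 and 336 at 2 weeks, beside 20347, 18993 and 7836 mouse reads at 6 weeks and 11701, 10045, 11237 and 9322 mouse reads at 2 weeks.

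Of 9 tested mesenchymal genes 2 rose and 1 fell, and of 16 epithelial junction and keratin genes limma called none, with 3 at an unadjusted p under 0.05 (1 higher and 2 lower). VIM, an intermediate filament of mesenchymal cells, had 1.88, 2.07 and 3.35 FPKM at 6 weeks against 0.413, 0.503, 0.2 and 0.523 FPKM at 2 weeks (1.27, SE 0.22, adjusted p = 0.000497). FN1 (fibronectin) had 3.81, 3.52 and 3.39 FPKM at 6 weeks against 0.945, 1.09, 1.01 and 0.903 FPKM at 2 weeks (1.2, SE 0.24, adjusted p = 0.00225). These are low levels, of 142, 160 and 190 human VIM reads at 6 weeks and 37, 49, 17 and 48 at 2 weeks. The same tumours held 9828, 10666 and 9143 mouse Vim reads at 6 weeks and 8850, 3696, 7217 and 3571 at 2 weeks, and 14854, 13530 and 7510 mouse Fn1 reads at 6 weeks and 12727, 6020, 6752 and 6456 at 2 weeks. The part of mouse reads in these human values was not tested. CDH2 (N-cadherin), another mesenchymal gene, had 1.88, 2.26 and 2.52 FPKM at 6 weeks against 4.92, 5.17, 3.56 and 5.35 FPKM at 2 weeks, so it fell (-0.83, SE 0.12, adjusted p = 5.81e-05). The keratins KRT8 and KRT18 had changes of 0.13 and 0.34 (adjusted p = 0.732 and 0.277).

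Few airway lineage genes other than those of cilia were called. Among 17 tested club and alveolar genes 6 had an unadjusted limma p under 0.05, 3 higher and 3 lower. Of 17 club and alveolar genes 1 rose and 1 fell: CYP2F1, a club cell cytochrome, rose by 0.58, and BPIFA1, a secreted airway defence protein, fell to 6.13, 4.01 and 6.31 FPKM at 6 weeks, against 11.6, 9.94, 10.7 and 13.7 FPKM at 2 weeks (-0.96, SE 0.19, adjusted p = 0.00198). The club cell secretoglobin SCGB1A1 had 30.7, 31.4 and 59.3 FPKM at 6 weeks against 40.5, 48.1, 76.5 and 40 FPKM at 2 weeks, with overlap (-0.35, adjusted p = 0.481). Of 11 mucous genes 1 fell, the gel-forming mucin MUC5AC (-0.83, adjusted p = 0.0437). Its 6-week values of 2.61, 2.99 and 8.88 FPKM overlapped those of 11.5, 6.28, 6.91 and 9.41 FPKM at 2 weeks, and the call ended without 2-week replicates 1 or 4 (-0.69 and -0.78) or 6-week replicates 1 or 2 (-0.57 and -0.64), with adjusted p of 0.000171 to 0.283 over the alternatives. Of 9 basal and squamous genes limma called none (1 at an unadjusted p under 0.05), and of 3 neuroendocrine genes none (1).

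Human HGF reads were few, and the samples of both times overlapped. HGF had 0.549, 0.408 and 0.12 FPKM at 6 weeks (79, 60 and 13 reads) against 0.276, 0.178, 0.0926 and 0.195 FPKM at 2 weeks (47, 33, 15 and 34 reads), with overlap (difference 0.19 on the log2 scale, p = 0.229 in an exact two-sided permutation test, whose smallest possible p is 0.0571, so no call was possible). The difference was 0.0857 without 6-week replicate 1, 0.319 without 6-week replicate 3 and 0.589 with a pseudocount of 0.1. Which cells made this HGF cannot be told from tumour tissue. MET (ENSG00000105976), its receptor, had 11.3, 12.5 and 11.7 FPKM at 6 weeks against 9.01, 9.31, 7.95 and 9.34 FPKM at 2 weeks, without overlap (0.38, SE 0.10, adjusted p = 0.0175). This call ended without 2-week replicate 3 (0.33) or 6-week replicate 2 (0.34), with adjusted p of 0.0175 to 0.096 over the alternatives. At both treated times MET stood below its mean of 26.8 FPKM in naive hHGF-NSG tumours, a description with no test here. HPN (hepsin), a protease that activates pro-HGF, had 3.6, 3.47 and 2.99 FPKM at 6 weeks against 1.33, 1.41, 1.36 and 1.8 FPKM at 2 weeks (0.82, SE 0.17, adjusted p = 0.00322). The other 10 of the 12 tested genes of HGF activation and MET were not called.

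Among 17 tested receptor kinases MET and a pair of FGF receptors rose and none fell. FGFR3 had 11.5, 9.44 and 11.3 FPKM at 6 weeks against 4.04, 3.45, 4.17 and 2.88 FPKM at 2 weeks, the largest rise of the list (1.35, SE 0.20, adjusted p = 8.8e-05). FGFR2 had 1.71, 1.7 and 1.78 FPKM at 6 weeks against 0.776, 1.1, 0.919 and 0.764 FPKM at 2 weeks (0.53, SE 0.11, adjusted p = 0.00217). Neither gene's groups overlapped. ALK, the target of alectinib, had 2.02, 2.54 and 2.99 FPKM at 6 weeks against 2.54, 2.96, 3.51 and 2.16 FPKM at 2 weeks (-0.11, SE 0.12, adjusted p = 0.714), and EML4, its usual fusion partner, had a change of 0.02 (adjusted p = 0.964). Of 22 genes of MAPK output only PHLDA1 was called (-0.43, adjusted p = 0.0479). The list leaned the other way, with a median of 0.23 and 17 positive changes. At an unadjusted limma p under 0.05 were 6 of its genes, 4 higher and 2 lower. With the replicate block and in the 7 samples alone, 1 gene of the list was called higher and 0 lower. The PHLDA1 call ended without 2-week replicates 1, 3 or 4 (-0.42, -0.42 and -0.37) or 6-week replicates 1 or 2 (-0.42 and -0.36). Of 4 EGFR family ligands limma called none, with 1 at an unadjusted p under 0.05.

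Some signalling targets moved in opposite directions within their list. Of 14 YAP and TEAD targets 2 rose and 1 fell, with 0 to 3 rises over the alternatives (0 without 2-week replicate 1 or 6-week replicate 1 or 2, and 1 without 2-week replicate 2 or 6-week replicate 3). CTGF had 43.8, 33.6 and 37.2 FPKM at 6 weeks against 86.2, 102, 60 and 82.4 FPKM at 2 weeks (-1.08, SE 0.19, adjusted p = 0.000533). CYR61 had 7.15, 6.9 and 8.45 FPKM at 6 weeks against 3.22, 3.15, 3.13 and 3.28 FPKM at 2 weeks (1.02, SE 0.28, adjusted p = 0.024). CTGF and CYR61 thus differ in sign, and both kept the groups apart. The CYR61 call ended without 2-week replicates 1 or 2 (1.02 and 1.01) or 6-week replicates 1, 2 or 3 (1.04, 1.07 and 0.94), with adjusted p of 0.000307 to 0.0917 over the alternatives, and so did that of AMOTL2 (0.82, adjusted p = 0.0195) without 2-week replicate 1 (0.73) or 6-week replicates 1 or 2 (0.73 and 0.78). The Notch ligand JAG1 fell by 0.52 (adjusted p = 0.0034) and the Wnt pathway factor TCF7 by 0.70 (adjusted p = 0.000741). Of 16 tested Notch genes 2 were called, both lower, and 8 had a positive and 8 a negative change. TCF7 was the only call among 9 tested Wnt genes and their only negative change. The other 8 changes were positive, with a list median of 0.20. At an unadjusted limma p under 0.05, 3 Wnt genes were higher and 1 lower.

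FOXO and insulin signalling genes were 2 higher and 1 lower of 17. TXNIP, which restrains glucose uptake, had 192, 222 and 270 FPKM at 6 weeks against 152, 131, 113 and 143 FPKM at 2 weeks (0.75, SE 0.16, adjusted p = 0.00306). PIK3IP1, an inhibitor of PI3K, rose by 1.08, and DDIT4, an inhibitor of mTORC1 from the stress list, by 1.15 (SE 0.18 and 0.21, adjusted p = 0.000408 and 0.000759). DDIT4 had 105, 108 and 91.3 FPKM at 6 weeks against 66, 48.7, 29.7 and 43.1 FPKM at 2 weeks. PDK4, an inhibitor of pyruvate dehydrogenase, went the other way, with 5.88, 6.66 and 6.79 FPKM at 6 weeks against 15.8, 20.9, 13.1 and 14.4 FPKM at 2 weeks (-1.18, SE 0.17, adjusted p = 9.1e-05). All 4 genes kept the groups apart.

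Interferon and antigen presentation genes had mostly small positive changes. Of 29 interferon response genes 2 rose, against 2.63% of all tested genes. In this list 26 had a positive sign and 13 had an unadjusted p under 0.05, all higher, with a list median of 0.25. The count of rises was 0 to 5 over the alternatives: 0 with a pseudocount of 0.1, with the replicate block, in the 7 samples alone and without 6-week replicate 1 or 2, 1 with no filter on low values and without 2-week replicate 3, and 5 without 6-week replicate 3. IFIT1 had 1.84, 3.14 and 0.848 FPKM at 6 weeks against 0.799, 0.906, 0.381 and 0.646 FPKM at 2 weeks, with overlap (0.74, SE 0.21, adjusted p = 0.0314). MX1 had 2.34, 3.15 and 1.18 FPKM at 6 weeks against 0.809, 1.08, 0.921 and 0.999 FPKM at 2 weeks (0.68, SE 0.18, adjusted p = 0.0221). In these genes 6-week replicate 2 was the highest and replicate 3 the lowest of its group. The IFIT1 call ended without 2-week replicates 3 or 4 (0.65 and 0.73) or 6-week replicates 1 or 2 (0.73 and 0.45), and the MX1 call without 2-week replicate 1 (0.64) or 6-week replicates 1 or 2 (0.63 and 0.47). Both ended with a pseudocount of 0.1 (1.26 for IFIT1 and 1.05 for MX1), with adjusted p of 0.00150 to 0.259 over the alternatives of both genes. IFI6 had 71.7, 189 and 60.4 FPKM at 6 weeks against 75.1, 32.3, 22 and 39.5 FPKM at 2 weeks and was not called (1.27, adjusted p = 0.097). HLA-B and HLA-E, MHC class I genes whose reads near-identical copies can share, rose by 0.64 and 0.60 (adjusted p = 0.00385 and 0.00365), 2 of 14 tested genes of the pathway.

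**Figure D4:**
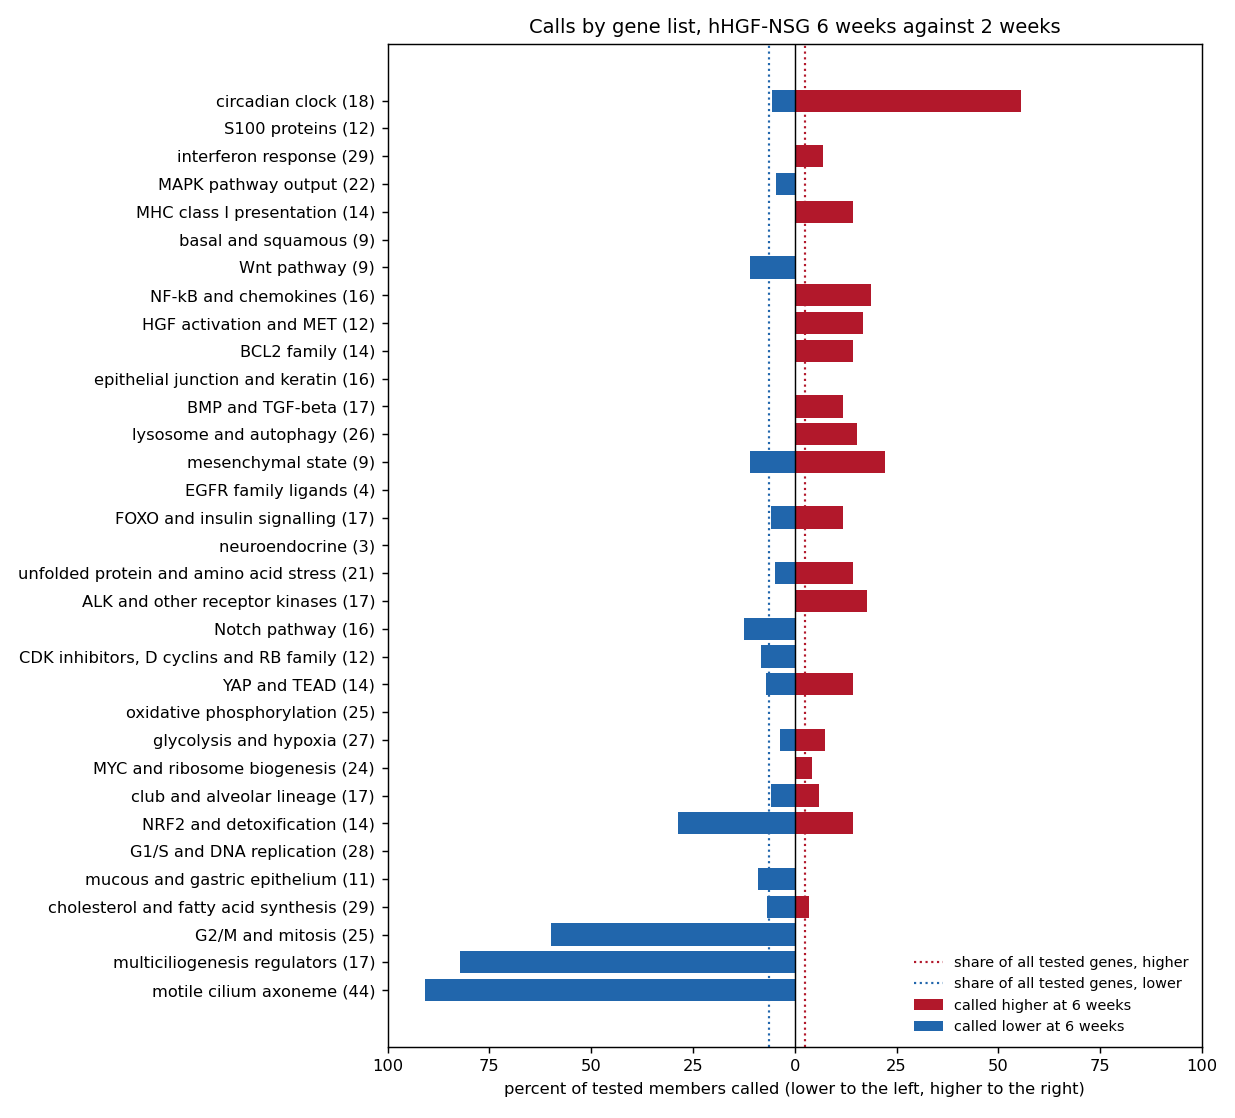
Percent of the tested members of each gene list called higher (to the right) or lower (to the left) in hHGF-NSG at 6 weeks against 2 weeks, with the number tested in brackets. Dotted lines mark the share of all tested genes, 2.63% higher and 6.45% lower; the cilia and mitosis lists extend to the left and the clock list to the right.

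NSG tumours, which share no sample with the hHGF-NSG tumours, were compared over the same times to see what differs with the human HGF host. There 3264 of 16029 genes were called (20.4%), 1352 higher (8.43%) and 1912 lower (11.9%). Called the same way in both hosts were 293 higher and 848 lower genes, which are 78.4% of the hHGF-NSG calls and 35% of the NSG calls, and 0 were called in opposite directions. The correlation of the log2 changes of hHGF-NSG and NSG was 0.591 across genes, which are not independent replicates, and the hosts share 1 estimate of spread. The 314 genes called only in hHGF-NSG and the 2123 called only in NSG are not shown to differ between hosts. The test of that difference, limma's interaction term, called 0 genes, with a smallest adjusted p of 0.512. At an unadjusted p under 0.05 were 1299 genes (8.1%), and limma voom on recovered reads also called 0.

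The leading genes changed in the same direction in hHGF-NSG and NSG. FOXJ1 changed by -1.57 in hHGF-NSG and -1.90 in NSG (difference 0.33, SE 0.24, unadjusted p = 0.186), CDC20B by -1.91 in hHGF-NSG and -1.60 in NSG, and CDC20 by -1.39 in hHGF-NSG and -1.57 in NSG. NR1D1 changed by 2.84 in hHGF-NSG and 2.41 in NSG (difference 0.43, SE 0.27, unadjusted p = 0.123). MET changed by 0.38 in hHGF-NSG and by 0.20 in NSG, where it was not called (adjusted p = 0.137), and the difference of 0.18 (SE 0.13) was not called either. A missed threshold does not show that the hosts act alike: the median SE of the difference was 0.194.

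Among the genes of the lists, the smallest p of the difference belonged to KIT, a receptor kinase, and TK1, thymidine kinase, and neither passed adjustment. KIT changed by -0.10 in hHGF-NSG and 0.57 in NSG (unadjusted p = 0.000813). TK1 changed by -0.09 in hHGF-NSG and -0.90 in NSG (difference 0.81, SE 0.21, unadjusted p = 0.000892, adjusted p = 0.512). It had 6.86, 8.92 and 10.3 FPKM at 6 weeks and 8.36, 8.67, 8.37 and 11.8 FPKM at 2 weeks in hHGF-NSG, where NSG tumours averaged 6 ± 0.74 FPKM at 6 weeks and 12.1 ± 1.46 FPKM at 2 weeks (SD, n = 4 each). FGFR3 changed by 1.35 in hHGF-NSG and 0.55 in NSG (unadjusted p = 0.00769), NFKB2 by 0.46 in hHGF-NSG and -0.16 in NSG (unadjusted p = 0.00318) and BPIFA1 by -0.96 in hHGF-NSG and -1.73 in NSG (unadjusted p = 0.00735). These genes were picked for their p among the lists, so the values are a description. The NFKB2 call in hHGF-NSG (adjusted p = 0.0349) ended without 2-week replicates 2 or 3 (0.42 each) or 6-week replicates 1 or 2 (0.42 each).

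**Figure D5:**
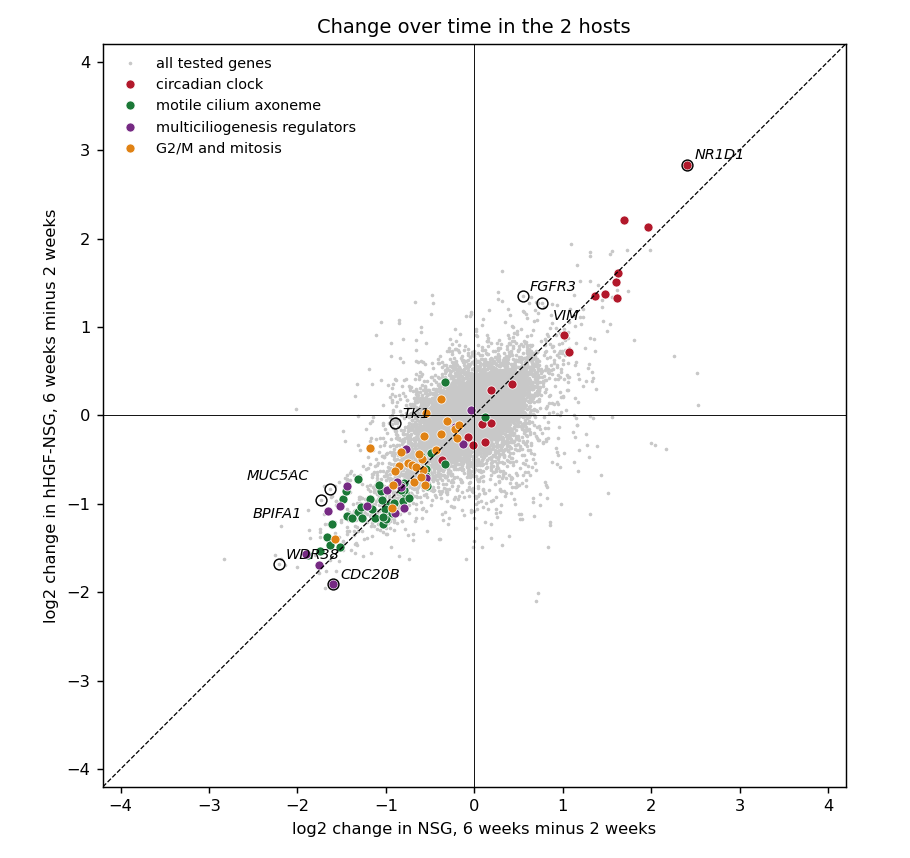
Each point is 1 tested human gene, with the log2 change from 6 weeks minus 2 weeks in NSG on the horizontal axis and in hHGF-NSG on the vertical axis. Most cilia genes lie below 0 in both hosts and NR1D1, DBP and TEF above it, and no gene passed the test of the difference between hosts.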

How the data were processed

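RNA sequencing of xenograft tissue was deposited as 1 table of human and 1 of mouse genes. The values are FPKM, per the file headers, made by the authors on hg38 (GRCh38) and mm10, per the submitters' processing notes. The submitters' processing notes list DESeq2 too, with no step attached. Which aligner and annotation release were used, whether strand was read and how the species were separated are not given in the sources. The tissue RNA was isolated with TRIzol reagent, as the labels' protocols state. Whole reads were recovered from the FPKM steps and gene lengths, with 100% of values whole within 0.05. The size behind the human FPKM was 0.876 to 1.11 of the total of recovered human reads, not that total itself. The median ratio of the human values was 1.0078 in all 22 samples, so they were already on a common median-ratio scale. Intervals and floors cover counting error only.

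Human genes with FPKM of at least 1 in 3 or more of the 22 samples were fitted with limma 3.58.1 (R 4.3.3) on log2(FPKM + 1), with 1 mean for each of 6 groups, an empirical Bayes trend and 16 residual degrees of freedom. All tests were two-sided, and p-values were adjusted by Benjamini-Hochberg over the 16029 genes. The step was tested on simulated data. Exact two-sided permutation tests compared HGF and the mouse share. Python 3.11.15 with pandas 2.3.3 and scipy 1.17.1 did the rest.

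The samples, gene lists and tests were chosen with earlier results of these data known. Named genes were HGF, MET, ALK and EML4, the 12 protein-coding genes per direction with the largest change among called genes without overlap and at a mean of 5 FPKM or more in the higher group, and up to 4 members per direction of each of 33 lists, the largest called changes or, with none, the highest mean. Genes outside that rule, such as list members named for their role, were chosen with values seen. Of 103 genes so taken, 81 had a RefSeq promoter (GRCh38.p14), as had 10485 of the tested genes. Some of the genes are not reported here, while the counts and list medians include them. No replicate pair agreed within counting noise.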

Additional observations from a re-analysis of the deposited data

Results flagged for a closer look

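In the group of 4 hHGF-NSG tumours at 2 weeks, 105 values were screened for a sample far from the others, and 6 had one. About 1 in 20 such groups is expected to by chance. CDC20B had 117 FPKM in replicate 2, with 97.6 to 99.5 FPKM in the others. PLK4 had 13 FPKM in replicate 2, with 10.4 to 10.6 FPKM in the others. TK1 had 11.8 FPKM in replicate 4, with 8.36 to 8.67 FPKM in the others. HMGCS1, an enzyme of cholesterol synthesis, had 14.8 FPKM in replicate 1, with 10.3 to 10.8 FPKM in the others. HEY1, a Notch target, had 4.72 FPKM in replicate 3, with 7.32 to 7.4 FPKM in the others. CTSB, a lysosomal protease, had 23.2 FPKM in replicate 3, with 31 to 32.2 FPKM in the others. The groups of 3 at 6 weeks were not screened.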

How the results depend on the processing

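The calls totalled 1252 with a pseudocount of 0.1, 1449 without the filter, 1453 with median ratio scaling, 1647 in the 7 samples alone, 1511 with limma voom (added after seeing the data) and 1016 to 1313 leaving out 1 library, with 250 to 391 higher and 756 to 964 lower. With the replicate number as a block, 1079 genes were called (284 higher and 795 lower). The numbers do not pair the samples: same-numbered deviations had correlations of -0.087, 0.054 and 0.164, and of the 3 tumours at 6 weeks only replicate 3 correlated best with its own number. The difference between hosts called 2 genes without the filter, AC068295.1 (-0.78) and HMGN1P9 (0.66), and 0 to 1 leaving out 1 library: MIR4761 (-1.96) without NSG 6-week replicate 1, MIR6772 (-3.08) without hHGF-NSG 6-week replicate 1 and RNU6-964P (2.21) without hHGF-NSG 6-week replicate 2, all named after their values were seen. Leaving out NSG libraries was also added after seeing the data. Of 86 named genes called, 58 kept the call in every alternative, 28 lost it in at least 1 and 0 changed direction. Losses numbered 8 with the pseudocount of 0.1, 16 without the filter, 19 with the block, 7 in the 7 samples alone, 0 with median ratio scaling and with voom, and 8 to 21 without 1 library. The median ratio was 1.0078 in all 22 samples. Median ratio scaling thus divided every value by the same number, could hardly change a call and is no check of the normalization. Small changes without a call changed sign: with the replicate block EML4 had -0.0499, TK1 0.0174 and CYC1 0.0164, and leaving out 1 library gave -0.0967 to 0.0768 for EML4, -0.207 to 0.0524 for TK1, -0.140 to 0.0412 for CYC1 and -0.0332 to 0.136 for BTC. The planned edgeR fit was not run, since the deposited unit is FPKM. A count of 0 reads allows up to 3 per library.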

Other observations

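Several lists outside the comparisons above changed in few members at 6 against 2 weeks in hHGF-NSG. Of 14 NRF2 and detoxification genes 2 were higher and 4 lower, with 0 to 2 higher and 2 to 5 lower over the alternatives. There was 1 higher gene without 2-week replicate 2, 3 or 4 or 6-week replicate 1 and 0 without 6-week replicate 2, and there were 2 lower genes without 6-week replicate 1 or 3. TXNRD1, thioredoxin reductase, had 19.6, 21.2 and 23.6 FPKM at 6 weeks against 41.9, 39.9, 28.9 and 36.7 FPKM at 2 weeks (log2 change -0.74, SE 0.12, adjusted p = 0.000208 by limma), without overlap. Of 26 lysosome and autophagy genes 4 were higher, led by GABARAPL1, an ATG8 family protein, with 13.5, 15.9 and 15.4 FPKM at 6 weeks against 9.46, 9.48, 9 and 8.59 FPKM at 2 weeks (0.65, SE 0.10, adjusted p = 0.00011). This count was 1 to 4 over the alternatives: 2 without 2-week replicate 2 or 3 or 6-week replicate 2, and 1 without 6-week replicate 1. Without 2-week replicate 3, 1 gene of this list was lower. Of 29 cholesterol and fatty acid synthesis genes 1 was higher and 2 lower: SQLE, squalene epoxidase, had 16.3, 16.6 and 16 FPKM at 6 weeks against 31.1, 27.7, 21.6 and 26.6 FPKM at 2 weeks (-0.67, SE 0.13, adjusted p = 0.00143). The cholesterol list had 0 to 1 higher and 1 to 2 lower genes over the alternatives, with 0 higher without any 1 library but 2-week replicate 1 or 4 and 1 lower without any 1 but 2-week replicate 2 or 4. Of 27 glycolysis and hypoxia genes 1 was lower (0 without 2-week replicate 1 or 2 or 6-week replicate 1) and 2 were higher, BNIP3, a mitophagy receptor, by 0.62 and NDRG1 by 0.57 (adjusted p = 0.00567 and 0.00303).

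Of 21 stress response genes 3 were higher and 1 lower, the serine synthesis enzyme PSPH (-0.59, SE 0.12, adjusted p = 0.00253), with 2 lower without 2-week replicate 3. CXCL16, a chemokine, had 16.1, 13.5 and 11.5 FPKM at 6 weeks against 6.37, 6.67, 7.26 and 8.47 FPKM at 2 weeks (0.84, SE 0.16, adjusted p = 0.00143), 1 of 3 NF-kB and chemokine genes higher of 16 tested (1 without 6-week replicate 1 or 2). BOK, a BCL2 family member, was higher by 0.90 (adjusted p = 0.00701), a call that ended without 6-week replicate 2 (0.75). Limma called none of 25 oxidative phosphorylation genes (3 at an unadjusted p under 0.05, all lower, and 1 called lower without 2-week replicate 3) and none of 12 S100 genes (4 higher and 1 lower at an unadjusted p under 0.05). HIST2H3D, a histone gene whose reads near-identical copies can share, had 4.65, 3.25 and 1.99 FPKM at 6 weeks against 11.8, 16.2, 12.2 and 7.25 FPKM at 2 weeks (-1.58, adjusted p = 0.00852), a call that ended without 6-week replicate 3 (-1.35) and with a pseudocount of 0.1 (-1.84).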
